A study of Mus musculus with 36 samples.

Results

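The genes described here make or phosphorylate inositol phosphates. They are the 2 phospholipases of the eta class, Plch1 and Plch2, the 3 inositol trisphosphate 3-kinases, Itpka, Itpkb and Itpkc, the 3 inositol hexakisphosphate kinases, Ip6k1, Ip6k2 and Ip6k3, inositol polyphosphate multikinase, Ipmk, and inositol pentakisphosphate 2-kinase, Ippk. All 10 were found among the 37417 genes of the count table. The list was chosen by measured values of these same libraries, namely the levels of Plch1, Itpka and Ip6k3 in 3 expression classes, so the class levels of all 10 genes are given as a description without a test. Levels are given as CPM, the count of a gene scaled to a common total of reads assigned to genes.

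RNA came from 36 subcutaneous tumours of wild-type mice aged 12 weeks, 1 library each. By their labels, 12 carried MC38 colon cancer cells in C57BL/6J mice, 12 carried CT26 colon cancer cells in BALB/c mice and 12 carried PancO2 pancreatic cancer cells in C57BL/6J mice. Within each model, 4 mice were labelled as given control IgG, 4 anti-CTLA4 and 4 anti-PD-1, each dosed at 10 mg per kg into the peritoneum. CTLA4 and PD-1 are receptors that restrain T cells, and the antibodies block them. Each model is a transplanted cell line in a syngeneic host, and libraries are named by label and mouse number.

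Phospholipase C cuts a membrane inositol lipid into diacylglycerol and inositol trisphosphate, and inositol trisphosphate opens calcium channels of the endoplasmic reticulum. The 3-kinases of the Itpk family end that signal by adding a phosphate. Ipmk and Ippk carry the phosphorylation on to inositol hexakisphosphate, from which the Ip6k enzymes make pyrophosphates that act in phosphate sensing, insulin signalling and vesicle traffic. Plch1, Plch2 and Itpka are best known from neurons, Itpkb from lymphocyte development, and Ip6k3 from muscle and brain.

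The libraries were described in 3 expression classes of 12 that do not follow the labels. The H2-Ea class had H2-Ea-ps above 10 CPM. H2-Ea-ps is a class II histocompatibility gene that is transcribed in BALB/c mice and not in C57BL/6J mice. It ran from 32.8 to 134 CPM inside the class and reached at most 0.0845 CPM outside it. The Cp-high class had Cp, which encodes the copper-carrying ferroxidase ceruloplasmin, above 1000 CPM. Cp lay between 1389 and 2168 CPM in that class, and the nearest library outside it had 611 CPM. The remaining libraries, called neither, had Cp between 255 and 611 CPM. Taking the labels MC38, CT26 and PancO2 in that order, the H2-Ea class held 4, 4 and 4 libraries, the Cp-high class 4, 3 and 5, and the class called neither 4, 5 and 3. Judged by H2-Ea-ps, 16 of 36 libraries went against the strain on their label, so every labelled comparison here is one of libraries labelled as such.

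Totals ran from 7883106 to 41751023 counts per library. The lowest belonged to the library labelled PancO2 anti-PD-1 71, in which 86.5% of all reads listed were assigned to no gene, against 44.8% to 63.4% in the other libraries. This H2-Ea library had the lowest level of its class for Itpka, Itpkb, Itpkc, Ip6k1, Ip6k2, Ipmk and Ippk and the highest for Plch1, Plch2 and Ip6k3. It also had the highest B cell, neutrophil and neural marker sums of its class, at 18.1, 114 and 58.4 CPM against next highest values of 3.13, 53.6 and 26.9 CPM. The part of these in its levels was not tested, and the end of the H2-Ea range that it set is given with and without it for each gene.

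The promoters of Plch1, Itpka and Ip6k3 are printed because the class pattern of these 3 genes raised the question of the other family members. Each is the RefSeq window from 250 bases before to 50 bases after the gene's start on GRCm38.p6, read 5′ to 3′ on the gene's own strand, with every CG dinucleotide in capitals. CG reads the same on both strands. Plch1 lies at chr3:63899413-63899712 on the minus strand, Itpka at chr2:119742087-119742386 on the plus strand and Ip6k3 at chr17:27167715-27168014 on the minus strand.
Plch1: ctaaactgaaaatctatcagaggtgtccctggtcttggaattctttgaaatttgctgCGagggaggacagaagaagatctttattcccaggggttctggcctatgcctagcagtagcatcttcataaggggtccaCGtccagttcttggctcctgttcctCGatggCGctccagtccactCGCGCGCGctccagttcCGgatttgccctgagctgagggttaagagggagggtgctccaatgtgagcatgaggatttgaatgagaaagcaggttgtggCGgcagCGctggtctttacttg
Itpka: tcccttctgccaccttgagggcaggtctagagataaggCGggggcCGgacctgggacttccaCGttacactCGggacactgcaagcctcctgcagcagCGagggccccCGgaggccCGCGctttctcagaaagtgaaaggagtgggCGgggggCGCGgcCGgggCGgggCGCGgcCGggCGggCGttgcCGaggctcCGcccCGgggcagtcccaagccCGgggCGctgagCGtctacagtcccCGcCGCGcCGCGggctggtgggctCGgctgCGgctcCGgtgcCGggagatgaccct
Ip6k3: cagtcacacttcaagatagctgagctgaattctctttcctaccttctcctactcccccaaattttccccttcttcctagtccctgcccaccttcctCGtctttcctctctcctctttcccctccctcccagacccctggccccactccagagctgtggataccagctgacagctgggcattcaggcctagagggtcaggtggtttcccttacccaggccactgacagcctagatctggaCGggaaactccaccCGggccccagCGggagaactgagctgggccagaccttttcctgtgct
The Itpka window held 33 CG dinucleotides, the Plch1 window 11 and the Ip6k3 window 4, and the median over 32851 promoters of the same length was 7. As many as 33 occurred in 8.56% of those promoters, as many as 11 in 41.4% and as many as 4 in 68.6%. These counts describe the sequence, and no methylation was measured in these tumours.

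Plch1 (ENSMUSG00000036834) encodes a calcium-sensitive phospholipase C and lies on GRCm38 at chr3:63696234-63899472, minus strand. In the Cp-high class its lowest, median and highest levels were 16.3, 23.7 and 32.2 CPM, from 328 to 1135 counts. In the class called neither they were 0, 0 and 0.0912 CPM, and 7 of 12 libraries had no count. The H2-Ea class lay between, at 0, 0.214 and 2.41 CPM. Plch1 was thus well detected in every Cp-high library, and the ranges of the Cp-high and the other classes did not overlap. Summed over the class, the Cp-high libraries held 7796 Plch1 counts and the libraries called neither 8, a ratio of pooled CPM of 1062 with a 95% counting interval from 538 to 2460. Against the H2-Ea class the pooled ratio was 74.3 (59.97 to 93.3). These intervals cover counting error only and leave out the spread between libraries.

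The H2-Ea class was not even for Plch1. The libraries labelled PancO2 anti-PD-1 71 and CT26 anti-CTLA4 35 had 2.41 and 1.61 CPM, from 19 counts each, and the next highest library, CT26 anti-PD-1 42, had 0.456 CPM. These were the 2 libraries with the lowest totals, 7883106 and 11821687 counts. Without PancO2 anti-PD-1 71 the class median was 0.213 CPM and its highest level 1.61 CPM.

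Plch2, the other eta-class phospholipase (ENSMUSG00000029055, chr4:154983115-155056784, minus strand), was near the limit of detection in all classes. Its lowest, median and highest levels were 0, 0.0681 and 0.507 CPM in the H2-Ea class, 0, 0.196 and 1.60 CPM in the Cp-high class and 0, 0.0819 and 0.253 CPM in the class called neither. In the libraries without a Plch2 count, the count of 0 allowed from up to 0.0976 CPM in MC38 IgG 2 to up to 0.254 CPM in CT26 anti-CTLA4 35. No more than 3 counts were found in 27 of 36 libraries. The highest H2-Ea value was 4 counts in PancO2 anti-PD-1 71, and 0.108 CPM was the highest without it. PancO2 IgG 48 stood above the others, with 57 counts and 1.60 CPM, and the next highest Cp-high library had 0.429 CPM. That library also had the highest summed level of the 5 keratinocyte markers, at 533 CPM against at most 88.9 CPM in the other classes and 52.8 CPM in the next Cp-high library. The part of skin transcripts in its Plch2 level was not tested. Plch2 was above 1 CPM in 1 library, so it did not pass the filter of 1 CPM in at least 4 libraries that the other 9 genes passed.

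Itpka (ENSMUSG00000027296, chr2:119742337-119751263, plus strand) encodes a 3-kinase that also bundles actin filaments. It was low in every library, at 1 to 54 counts. Its lowest, median and highest levels were 0.395, 1.02 and 1.77 CPM in the class called neither, 0.274, 0.439 and 0.886 CPM in the Cp-high class and 0.127, 0.307 and 0.606 CPM in the H2-Ea class. The median of the libraries called neither was 2.33 times that of the Cp-high class and 3.34 times that of the H2-Ea class, and the ranges of all 3 classes overlapped. The lowest H2-Ea value was that of PancO2 anti-PD-1 71, a single count, and the class started at 0.149 CPM without it. The neural and Schwann cell marker sum was also highest there, at a median of 64.2 CPM (34.8 to 75.6) against 34.3 CPM (16.4 to 49.6) in the Cp-high class and 20.3 CPM (15.1 to 58.4) in the H2-Ea class. Its part in the Itpka level was not tested.

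Itpkb (ENSMUSG00000038855, chr1:180330485-180424802, plus strand) had the highest median level per kilobase of exon of the 3-kinases in each class. In CPM it ran from 50.5 to 67.9 CPM with a median of 57.5 CPM in the Cp-high class, from 40.6 to 51.9 CPM with a median of 46.2 CPM in the class called neither, and from 17.9 to 47.1 CPM with a median of 33.9 CPM in the H2-Ea class. The H2-Ea class started at 23.9 CPM without PancO2 anti-PD-1 71. Cp-high libraries all lay above H2-Ea libraries, by a ratio of medians of 1.70. T cell markers had median sums of 60.3 CPM in the Cp-high class, 30.3 CPM in the H2-Ea class and 30.8 CPM in the class called neither. Within classes, Itpkb and the summed T and B cell markers had Pearson r of -0.51, 0.16 and -0.17 in the H2-Ea, Cp-high and remaining libraries (n = 12 each), with permutation p adjusted over 21 relations of 0.346, 0.687 and 0.687. Without PancO2 anti-PD-1 71, which had the lowest Itpkb level and the highest B cell sum of its class, the H2-Ea r was -0.16 (permutation p 0.633, adjusted 0.738). In bulk tumour RNA, a change in the number of cells of a type and a change in RNA per cell cannot be told apart.

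Itpkc (ENSMUSG00000003752, chr7:27207172-27228661, minus strand), a widely expressed 3-kinase, differed least of its family. Its median was 14.7 CPM in the H2-Ea class (4.57 to 17.7), 16.4 CPM in the Cp-high class (15.4 to 21.7) and 13.9 CPM in the class called neither (11.7 to 16), and all classes overlapped. The lowest value, 4.57 CPM, was PancO2 anti-PD-1 71, and the H2-Ea class started at 12.7 CPM without it. The highest was PancO2 IgG 48, the library with the most keratinocyte transcripts. Its exons share 1273 bases with BC024978 on the opposite strand, which had a median of 7.71 CPM, so reads could have been exchanged between these genes if strand was not used in counting.

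Ip6k3 (ENSMUSG00000024210, chr17:27143965-27167795, minus strand) followed Plch1 in being highest in the Cp-high class. It lay at 3.56, 4.49 and 10.9 CPM there (lowest, median and highest), at 0.254, 1.11 and 2.16 CPM in the H2-Ea class and at 0.387, 0.981 and 2.19 CPM in the class called neither. Every Cp-high library was above every other library, by ratios of medians of 4.58 over the class called neither and 4.05 over the H2-Ea class. PancO2 anti-PD-1 68 and MC38 IgG 7 were the highest, at 10.9 and 9.93 CPM. The H2-Ea class reached 1.75 CPM without PancO2 anti-PD-1 71. No order of the H2-Ea class and the class called neither is given for Ip6k3, since its sign depended on whether medians or means of log2 CPM were taken.

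Marker sums of several cell types also differed between the classes, in various orders. The summed CPM of the 5 epithelial markers was 577 to 1186 in the Cp-high class, 64.4 to 430 in the class called neither and 8.80 to 43.7 in the H2-Ea class, and 4 of 5 had a median above 1 CPM in the Cp-high class against 2 of 5 in each of the others. One of them, Krt18, went against the sums, with a median of 0.346 CPM in the class called neither and 10.8 CPM in the H2-Ea class. Macrophage marker sums had medians of 1297, 1483 and 886 CPM and fibroblast marker sums medians of 4160, 3545 and 2059 CPM in the Cp-high, remaining and H2-Ea libraries, and endothelial sums medians of 94.1, 163 and 151 CPM. Single markers did not all follow the sums. Mrc1 had a median of 55.6 CPM in the Cp-high class against 264 CPM in the H2-Ea class, Col1a2 was highest in the H2-Ea class at 1400 CPM against 204 CPM in the Cp-high class, and Col1a1 and Pdgfra were highest in the class called neither, at 1380 and 472 CPM. The part of cell makeup in the class levels was not tested. Since Ip6k3 is known from muscle, it was set beside the 8 skeletal muscle markers. Their sum had medians of 58.4, 40.7 and 45.5 CPM in the Cp-high, H2-Ea and remaining libraries, and in the Cp-high class it ran from 7.89 to 793 CPM. The muscle sum was 53.96 CPM in PancO2 anti-PD-1 68 and 330 CPM in MC38 IgG 7, the 2 libraries highest in Ip6k3. The library highest in muscle transcripts, MC38 anti-PD-1 18, had 6.50 CPM of Ip6k3. Within the Cp-high class, Pearson r was 0.39 and Spearman rho 0.29 (n = 12), with permutation p of 0.215 and 0.357, 0.451 and 0.639 after adjustment, and r was 0.42 without the 2 libraries farthest in Ip6k3. In the H2-Ea class r was -0.11 (permutation p 0.738, 0.775 adjusted), and 0.24 without the 2 farthest. Among the remaining libraries r was 0.16 (permutation p 0.620, 0.687 adjusted), and 0.0086 without the 2 farthest. The part of muscle transcripts in the Ip6k3 level was not tested.

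Ip6k1 (ENSMUSG00000032594, chr9:108002501-108048782, plus strand) and Ip6k2 (ENSMUSG00000032599, chr9:108783796-108806337, plus strand) were expressed in every library. Ip6k1 was lower in the H2-Ea class, at 38.7 to 80.1 CPM with a median of 73.7 CPM, than in the Cp-high class (82.4 to 121, median 91.0 CPM) or the class called neither (87.1 to 111, median 98.0 CPM), and the H2-Ea range met neither of the others. Without PancO2 anti-PD-1 71 the H2-Ea class started at 67.5 CPM for Ip6k1 and at 32.2 CPM for Ip6k2. With effective library sizes from edgeR's trimmed mean of M-values (TMM), the H2-Ea and Cp-high ranges overlapped. With DESeq2 size factors, the H2-Ea range overlapped with both. The exons of Ip6k1 share 942 bases with Gm20662 on the same strand, which was not analysed here. Ip6k2 overlapped in all classes, with medians of 34.3 CPM in the H2-Ea class (27.5 to 40.6), 39.9 CPM in the Cp-high class (33.1 to 54) and 34.5 CPM in the class called neither (31.4 to 46.1).

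Ipmk (ENSMUSG00000060733, chr10:71347763-71433327, plus strand), which adds phosphates at several positions, was highest in the H2-Ea class. Its levels there were 60 to 105 CPM with a median of 92.0 CPM, against 48.2 to 65.6 CPM with a median of 52.8 CPM in the Cp-high class and 43.3 to 56.3 CPM with a median of 47.8 CPM in the class called neither. The H2-Ea median was 1.92 times that of the libraries called neither, without overlap, and 1.74 times that of the Cp-high class. PancO2 anti-PD-1 71, at 60 CPM, was the H2-Ea library inside the Cp-high range, and the other H2-Ea libraries started at 79.0 CPM.

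Ippk (ENSMUSG00000021385, chr13:49421249-49464573, plus strand) makes inositol hexakisphosphate, the substrate of the Ip6k enzymes. It was lowest in the Cp-high class, at 9.37 to 12.9 CPM with a median of 11.8 CPM, and that range met neither the class called neither (16.2 to 23.6, median 19.1 CPM) nor the H2-Ea class (14.5 to 28.3, median 24.6 CPM). The Cp-high median was 0.619 and 0.480 times those medians. The H2-Ea class started at 19.5 CPM without PancO2 anti-PD-1 71. Its exons share 315 bases with Cenpp on the opposite strand, which had a median of 11.3 CPM.

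**Figure D1:**
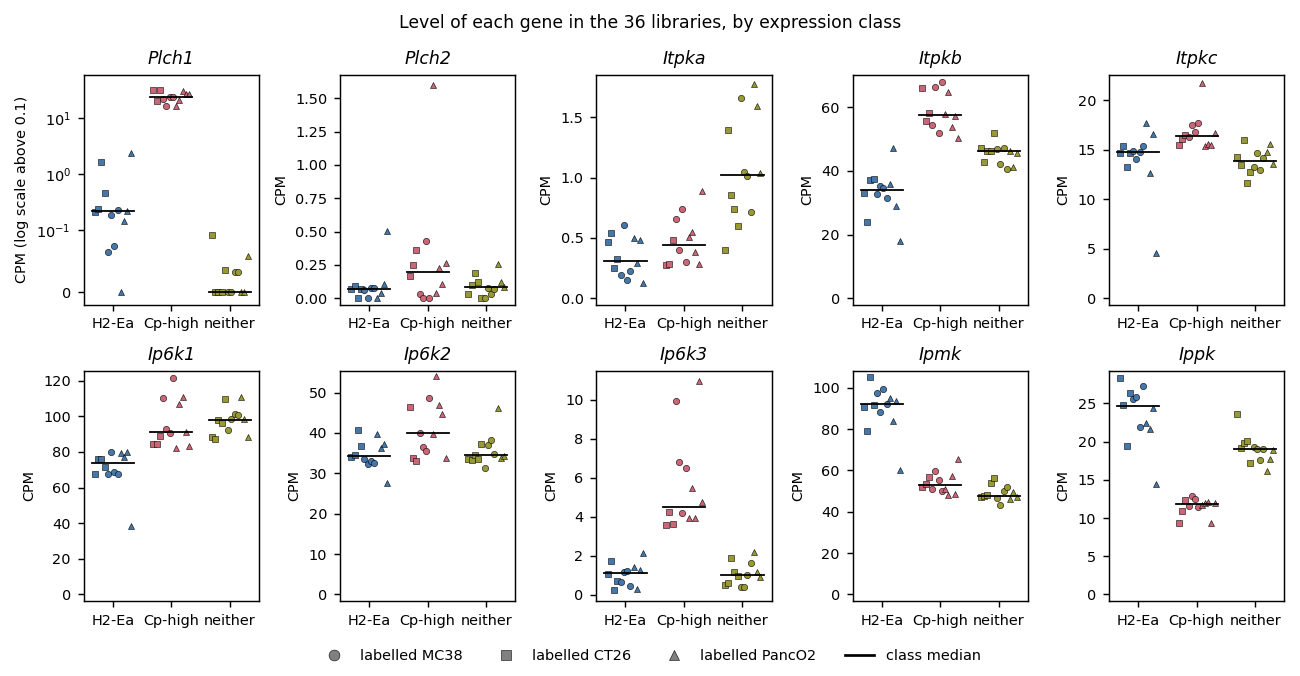
CPM of the 10 genes in 36 libraries by expression class, with 1 point per library, the marker shape for the labelled model and a line at the class median; the Plch1 axis is logarithmic above 0.1 CPM and the others are linear. Plch1 and Ip6k3 lie highest in the Cp-high class, from 16.3 and 3.56 CPM upwards, Ippk lies lowest there, Ipmk lies highest in the H2-Ea class, and the lone low H2-Ea point for Ip6k1 (38.7 CPM) and Itpkc (4.57 CPM) is PancO2 anti-PD-1 71.

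Class differences without overlap were common in these libraries. Between the Cp-high class and the class called neither, 30.2% of the 15217 genes that passed the 1 CPM filter did not overlap, and Plch1, Ip6k3 and Ippk were the 3 of 9 listed genes that did not. Between Cp-high and H2-Ea libraries it was 31% of genes and 5 of 9 listed genes, namely Plch1, Itpkb, Ip6k1, Ip6k3 and Ippk. Between H2-Ea libraries and the class called neither it was 26.2% of genes and 2 of 9 listed genes, Ip6k1 and Ipmk. Class medians spanned more than 2-fold for 39.1% of all genes and for 4 of 9 listed genes. The listed genes were chosen for some of these values, so nothing is read from their counts.

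The paralogue question was whether another family member was higher where Plch1, Itpka or Ip6k3 was low. Levels were summed over each family in CPM per kilobase of exon, so that genes of different length could be added. For the phospholipases, the summed level had medians of 0.0343 in the H2-Ea class, 2.77 in the Cp-high class and 0.0134 CPM per kilobase in the class called neither. Plch1 made up a median of 99.3% of the sum in the Cp-high class. A rise of Plch2 where Plch1 was low was not detectable at these counts. The H2-Ea libraries held 19 Plch2 counts in all and the libraries called neither 30, against 110 in the Cp-high class, of which PancO2 IgG 48 gave 57.

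For the 3-kinases, the sum had medians of 6.19, 8.80 and 7.49 CPM per kilobase in the H2-Ea, Cp-high and remaining libraries. Itpka contributed a median of 2.69%, 2.66% and 7.52%, and Itpkb was the largest contributor in each class, at 52.4%, 62.3% and 56.3%. The classes in which Itpka was low therefore lay on both sides of the libraries called neither in the family sum. The difference in median Itpka between the class called neither and the H2-Ea class, from 0.564 to 0.169 CPM per kilobase, was small beside medians of 3.24 for Itpkb and 2.79 for Itpkc in the H2-Ea class.

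For the hexakisphosphate kinases, the sum had medians of 20.6, 26.1 and 24.2 CPM per kilobase in the H2-Ea, Cp-high and remaining libraries. Ip6k3 made up a median of 2.37%, 7.56% and 1.72%, with up to 15.7% in a Cp-high library. Of the classes with low Ip6k3, the H2-Ea class had the lowest median Ip6k1, 11.4 CPM per kilobase, and the class called neither the highest, 15.1 CPM per kilobase, with 14 in the Cp-high class. Ip6k2 medians were 8.44, 9.81 and 8.48 CPM per kilobase in the same order of H2-Ea, Cp-high and remaining libraries.

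**Figure D2:**
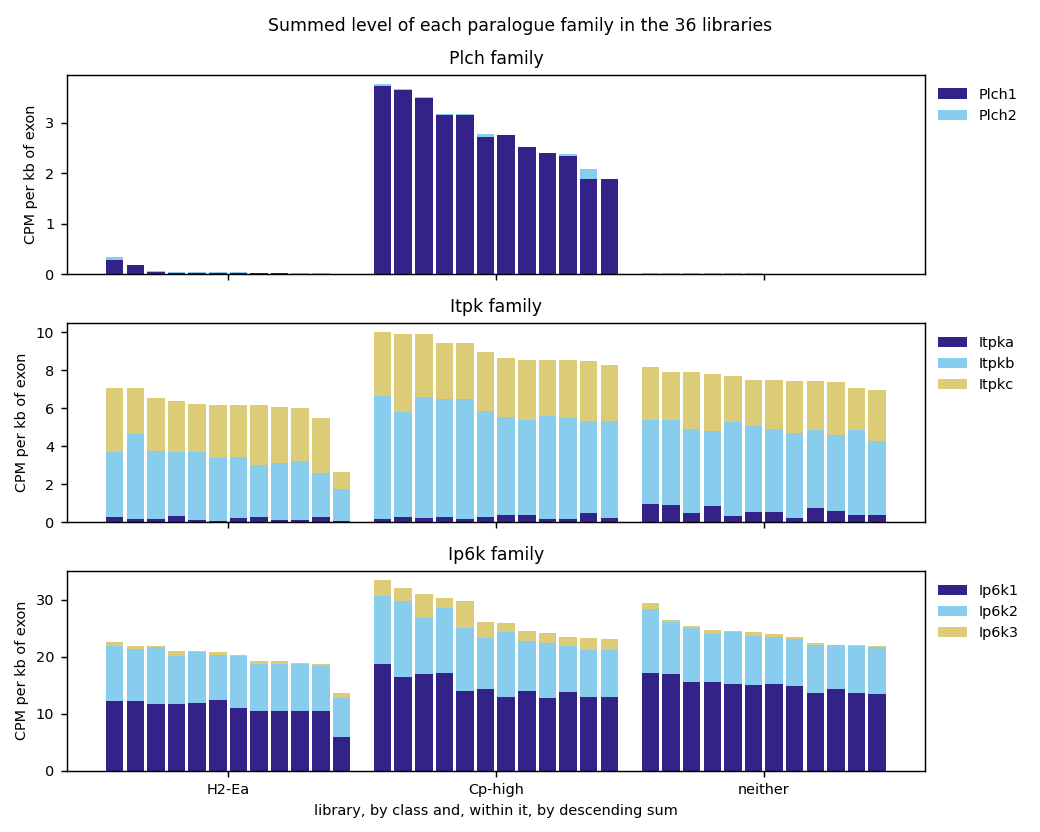
Summed level of each paralogue family in CPM per kilobase of exon, 1 stacked bar per library, ordered by class and by sum within it, with colours for the family members. The Plch sum is nearly all Plch1 and is at least 1.89 in every Cp-high library, whereas Itpkb with Itpkc and Ip6k1 with Ip6k2 fill most of the other bars in all classes.

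Within a class, compensation would appear as a negative relation between paralogues over its 12 libraries. Pearson r of log2 CPM (prior count 2) was negative for 5 of the 15 paralogue relations (5 pairs in 3 classes). None of the 21 relations examined, of which 6 set Ip6k3 or Itpkb against marker sums, passed an adjusted permutation p of 0.05 by Pearson's or Spearman's coefficient, and 1 had an unadjusted Pearson p under 0.05. The strongest negative one was Itpka with Itpkb in the Cp-high class, with r of -0.56 and rho of -0.51 (permutation p 0.0590 and 0.0935, 0.346 and 0.639 adjusted). It fell to r of -0.24 without the 2 libraries farthest in Itpka, so it rested on them. In the libraries called neither the same pair had r of -0.32 and rho of -0.34 (permutation p 0.306 and 0.275, 0.535 and 0.639 adjusted), and r of -0.37 without the 2 farthest.

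Itpka with Itpkc in the H2-Ea class was the relation with an unadjusted p under 0.05. It was positive, with r of 0.56 and rho of 0.33 (permutation p 0.0165 and 0.296, 0.346 and 0.639 adjusted), and r of 0.46 without the 2 farthest libraries. Without PancO2 anti-PD-1 71 alone it was 0.32 (permutation p 0.332, 0.738 adjusted). Ip6k3 and Ip6k1 also ran together among the libraries called neither, with r of 0.57 and rho of 0.51 (permutation p 0.0553 and 0.0935, 0.346 and 0.639 adjusted) and r of 0.69 without the 2 farthest. Ip6k3 and Ip6k2 ran opposite in the H2-Ea class, with r of -0.47 and rho of -0.24 (permutation p 0.126 and 0.460, 0.346 and 0.743 adjusted) and r of -0.20 without the 2 farthest. Plch1 and Plch2 had r of -0.46 and rho of -0.51 among the libraries called neither (permutation p 0.132 and 0.0941, 0.346 and 0.639 adjusted) and -0.56 without the 2 farthest, at no more than 3 Plch1 and 6 Plch2 counts per library. At such counts no relation can be read between the phospholipases.

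**Figure D3:**
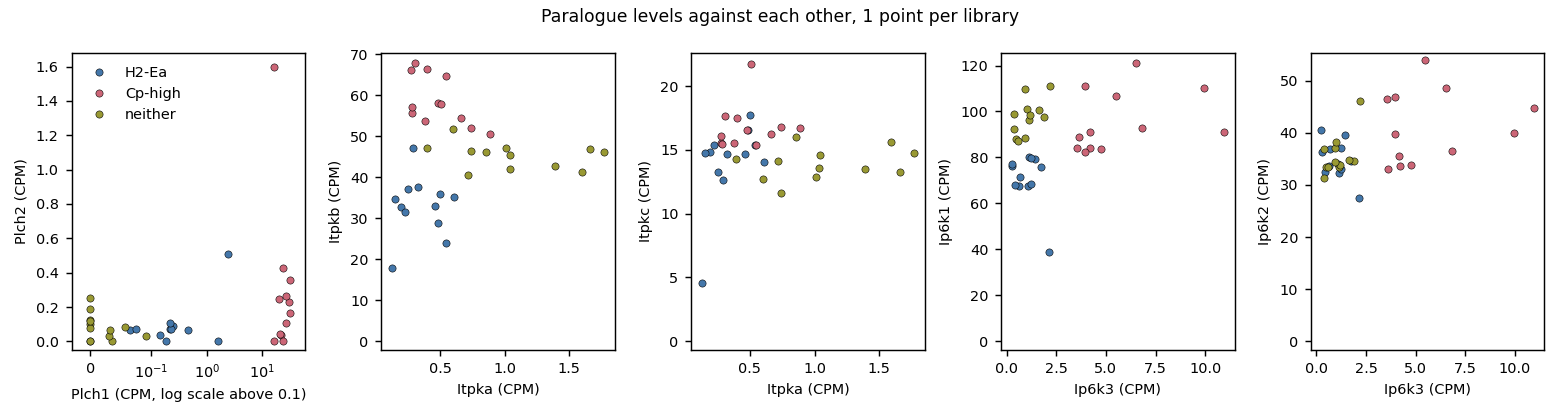
CPM of Plch1, Itpka or Ip6k3 (x) against a paralogue (y) in 36 libraries, 1 point each, coloured by class; the Plch1 axis is logarithmic above 0.1 CPM. Itpkb lies between 50.5 and 67.9 CPM in the Cp-high class at 0.274 to 0.886 CPM of Itpka, and Ip6k1 spans 87.1 to 111 CPM among the libraries called neither while Ip6k3 stays at or below 2.19 CPM.

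The genes most like Plch1 over the 36 libraries, by Pearson r of log2 CPM, were Sytl5 (0.978), Dnah7b (0.974), Tpd52l1 (0.969), Pi15 (0.969) and Sgsm1 (0.969). Each was highest in the Cp-high class, Pi15 with a median of 272 CPM there against 3.37 CPM in the H2-Ea class and 0.998 CPM in the class called neither. The genes most like Ip6k3 were Tfr2 (0.894), Atp2c2 (0.885), Trim7 (0.883), Tspan8 (0.879) and Col28a1 (0.879), again with their highest medians in the Cp-high class. Those most like Itpka were Rbm7 (0.838), Nub1 (0.833), Wsb1 (0.822), Ttc39c (0.821) and Perm1 (0.808), whose medians were highest among the libraries called neither. These coefficients describe a class difference over 15216 other genes that share the same libraries, and carry no p.

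The wider inositol pathway was described from a list of 44 genes, chosen with earlier results of these data known, of which 44 were in the table and 41 passed the expression filter. Class medians were highest in the Cp-high class for 22 of the 41, in the H2-Ea class for 10 and in the class called neither for 9. The same shares over all genes are not given, so nothing is read from these counts. Of all genes without overlap between Cp-high and H2-Ea libraries, 61.1% were higher in the Cp-high class, which is another measure and no background for these counts. Class medians spanned more than 2-fold for 13 of 41 genes, against 39.1% of all genes. The 8 with the widest span were mostly phospholipases of other classes and their catalytically inactive relatives.

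Plcg2, the phospholipase downstream of immune receptors, had medians of 211 CPM in the Cp-high class (161 to 244), 28.6 CPM in the class called neither (21.9 to 37.5) and 17.6 CPM in the H2-Ea class (13.1 to 29). Plcb1, a phospholipase activated by G proteins, had medians of 85.7, 3.26 and 50.6 CPM in the same order. Plcb4, of the same class, was highest in H2-Ea libraries, at 80.3 CPM (49.9 to 108) against 4.53 CPM in Cp-high libraries and 3.37 CPM in the class called neither. The family members thus differed in which class was highest. Plcl1 and Plcl2, which bind inositol phosphates without phospholipase activity, had opposite patterns. Plcl1 had medians of 23.4, 11.3 and 0.979 CPM in the Cp-high, remaining and H2-Ea libraries, and Plcl2 medians of 11.2, 46.3 and 54.8 CPM. Plce1, a phospholipase that binds Ras, stayed low, at 3.33, 0.880 and 1.24 CPM. Isyna1, which makes inositol from a phosphate of glucose, was low in H2-Ea libraries at 5.36 CPM (3.93 to 7.77), against 59.9 and 55.9 CPM in Cp-high libraries and the class called neither. Itpk1, a kinase on another route to higher inositol phosphates, had medians of 86.3 CPM in the Cp-high class, 41.2 CPM in the H2-Ea class and 18.3 CPM in the class called neither.

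**Figure D4:**
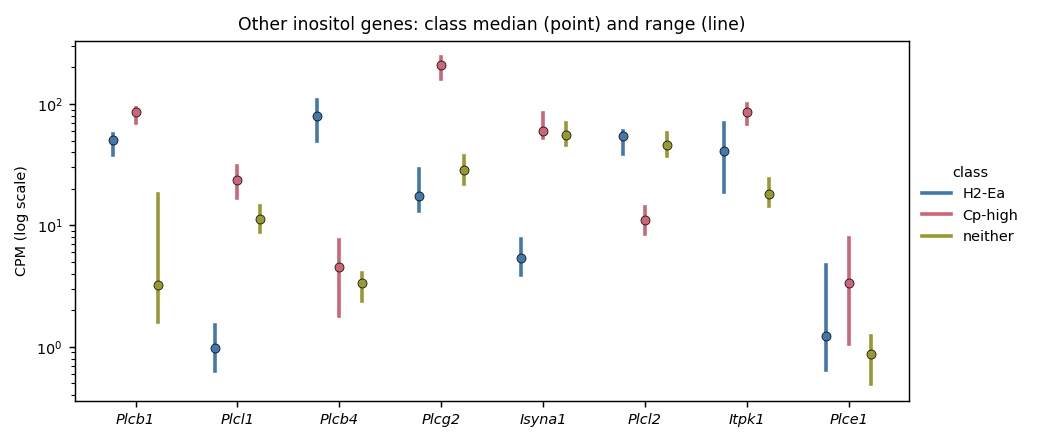
CPM on a logarithmic axis of the 8 genes of the inositol list with the widest span of class medians, with points for medians and lines from the lowest to the highest of 12 libraries in each class. Plcg2 and Plcb4 show opposite orders of the Cp-high and H2-Ea classes, at medians of 211 and 4.53 CPM in the Cp-high class and 17.6 and 80.3 CPM in the H2-Ea class.

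Labelled groups were compared because the study asked how tumours respond to checkpoint antibodies, and the labels were not used to choose the genes. In the libraries labelled IgG, Plch1 was 0, 0.0647, 0.182 and 21.7 CPM under the label MC38. It was 0.0912, 0.213, 31.5 and 0 CPM under the label CT26. It was 16.4, 0, 0 and 0 CPM under the label PancO2. Each labelled model thus held 1 library with Plch1 above 16 CPM, the Cp-high one. With anti-PD-1, the levels were 0.224, 23.5, 23.8 and 0.0326 CPM for MC38, 0, 0.0352, 0.456 and 32.2 CPM for CT26, and 0.215, 27.3, 27.2 and 2.41 CPM for PancO2. The number of Cp-high libraries in a labelled group, 1 or 2 of 4, was the number of its Plch1 values above 16 CPM.

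Between labelled models in the IgG libraries, edgeR's quasi-likelihood test called 0% of 16510 genes at a Benjamini-Hochberg adjusted p under 0.05 in each of 3 comparisons, and unadjusted p-values under 0.05 were held by 0.563% of genes when PancO2 was set against MC38, 0.594% when it was set against CT26 and 0.503% when CT26 was set against MC38. DESeq2's Wald test called at most 2 genes in any comparison of labelled groups, none of them listed. Of the 8 listed genes that edgeR's filter kept, 0 were called and 0 had an unadjusted p under 0.05. The filter dropped Plch1 and Plch2, so these edgeR fits did not test them. The widest difference was Ip6k3 in CT26 against MC38, with a log2 fold change of -1.07 (SE 1.01, adjusted p 0.9998). Its values were 0.487, 1.07, 3.56 and 0.577 CPM for CT26 and 0.390, 0.647, 1.15 and 9.93 CPM for MC38, so 1 Cp-high library carried most of each group.

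Within a labelled model, antibodies were compared with IgG for 9 listed genes, all but Plch2. In the 6 comparisons edgeR called 0% of genes, and 0 listed genes had an unadjusted p under 0.05. The share of all genes with an unadjusted p under 0.05 was 0.374% and 0.153% for anti-PD-1 and anti-CTLA4 in MC38, 0.332% and 0.528% in CT26, and 5.56% and 0.488% in PancO2. The smallest p among the listed genes was for Itpka with anti-PD-1 in PancO2, with a log2 fold change of -1.19 (SE 0.68, adjusted p 0.807). Itpka was 0.505, 1.77, 1.60 and 0.498 CPM with IgG and 0.485, 0.280, 0.886 and 0.127 CPM with anti-PD-1. Both values above 1 CPM came from libraries called neither, a class the anti-PD-1 group did not contain, and with a term for class the log2 fold change was -0.15 (SE 0.60, adjusted p 0.997).

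All 36 libraries were then fitted with class and labelled model as terms, so that class did not add to the spread. edgeR called 0% of 17652 genes for either antibody, and 3.82% and 1.94% had an unadjusted p under 0.05 for anti-PD-1 and anti-CTLA4. Of 9 listed genes, 0 were called and 0 had an unadjusted p under 0.05. Plch1 came nearest, with a log2 fold change of 0.78 for anti-PD-1 (SE 0.40, p 0.0593, adjusted p 0.964 by edgeR) and 0.28 for anti-CTLA4 (SE 0.41, adjusted p 0.9999). Itpka had -0.36 for anti-PD-1 (SE 0.27, adjusted p 0.964) and -0.41 for anti-CTLA4 (SE 0.26, adjusted p 0.9999). The other 7 listed genes lay between -0.15 and 0.17 for anti-PD-1 and between -0.09 and 0.03 for anti-CTLA4, with SEs from 0.07 to 0.33. Across the 41 tested genes of the inositol list 0 were called by edgeR in any of the 11 comparisons, and 3, Plcb2, Inpp5j and Minpp1, had an unadjusted p under 0.05, all between the labels PancO2 and CT26. In that comparison of IgG libraries 0.594% of 16510 genes had such an edgeR p, and nothing is read from the 3.

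**Figure D5:**
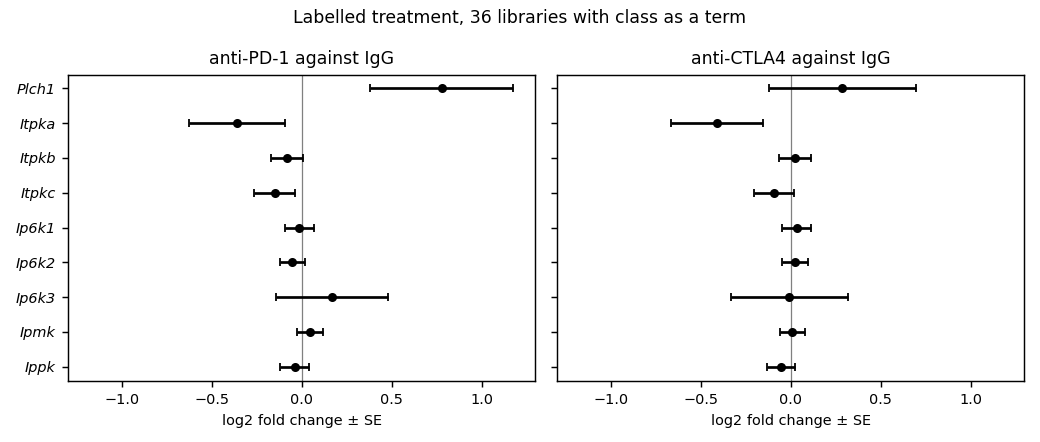
Log2 fold change with its SE of the 9 tested genes for anti-PD-1 (left) and anti-CTLA4 (right) against IgG, fitted by edgeR over 36 libraries with class and labelled model as terms. Plch1 lies highest and Itpka lowest for anti-PD-1, at 0.78 and -0.36, both within about 2 SEs of 0, and the other genes lie within 0.17 of 0.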

How the data were processed

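Poly-A libraries from 36 tumours were analysed. The authors deposited unnormalized read counts for each Ensembl gene, made with TopHat, Bowtie2 and HTSeq on GRCm38; FastQC 0.11.5 is named in the submitters' processing notes. The Ensembl release and the use of strand are not given in the sources used here. Summary lines that name no gene (44.8% to 86.5% of reads) were left out. CPM are scaled to the sum of the remaining counts. Symbols, coordinates and exon lengths came from GENCODE vM21 (GRCm38).

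The members and lists were chosen with earlier results of these data known. Classes were cut at 10 CPM of H2-Ea-ps and 1000 CPM of Cp. Genes named were the listed genes, H2-Ea-ps, Cp, the 5 genes nearest to Plch1, Itpka and Ip6k3 by r, and the 8 inositol genes with the widest span of class medians whose highest was at least 1 CPM. Labelled groups were tested over all genes with edgeR 4.0.16 in R 4.3.3 (filterByExpr, TMM, robust quasi-likelihood, two-sided, Benjamini-Hochberg); DESeq2 1.42.0 and limma-voom 3.58.1 were alternatives. SE is the log2 fold change over the square root of F. Correlations used scipy 1.17.1 and numpy 2.4.6 with 100000 permutations, two-sided. No batch is given in the labels, and p-values measure the spread between libraries of separately numbered mice. On simulated counts with 200 genes changed 3-fold at a dispersion of 0.1, the fit of 36 libraries recovered 200 among 17175 genes with 9 false calls. The fit of 12 libraries labelled MC38 recovered 176 among 16001 genes with 8. The simulated libraries held no expression classes, and genes of low count were not among those changed. The recovery therefore checks the fit only and does not show what the labelled comparisons could detect in these libraries.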

Additional observations from a re-analysis of the deposited data

Results flagged for a closer look

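In each labelled group of 4 libraries, each of the 10 genes was examined for a single library far from the others by Dixon's test at the 95% level. Of 90 sets 18 stood out. Chance gives about 1 in 20, or 4.5, but among all genes above 1 CPM in at least 4 libraries 11.5% of such sets stood out. In 15 of the 18 the library was the only one of its expression class in its group. For Plch1 and Ip6k3 the choice of genes by class level fixes this, so their values are a description. The total of 18 includes genes chosen by class level, so nothing is read from it against 4.5 or 11.5%. It also includes Plch2, which did not pass the filter of 1 CPM in at least 4 libraries. Among listed genes above that filter, 17 of 81 sets stood out. Plch1 stood out high 6 times, in MC38 IgG 7 (21.7 CPM), MC38 anti-CTLA4 8 (16.3 CPM), CT26 IgG 28 (31.5 CPM), CT26 anti-CTLA4 36 (20.3 CPM), CT26 anti-PD-1 46 (32.2 CPM) and PancO2 IgG 48 (16.4 CPM), each the sole Cp-high library of its group. Ip6k3 stood out 3 times in such libraries, in MC38 IgG 7 (9.93 CPM), MC38 anti-CTLA4 8 (6.82 CPM) and CT26 anti-PD-1 46 (3.63 CPM). Ipmk stood out 4 times in the sole H2-Ea library, in MC38 anti-PD-1 16 (92.3 CPM), CT26 IgG 27 (90.6 CPM), CT26 anti-PD-1 42 (91.8 CPM) and PancO2 IgG 54 (95.2 CPM). Ip6k2 was high in CT26 IgG 28 (46.4 CPM) and CT26 anti-CTLA4 35 (40.6 CPM), Plch2 in PancO2 IgG 48 (1.60 CPM) and Itpka in CT26 IgG 29 (1.39 CPM). Itpkc was low in PancO2 anti-PD-1 71 (4.57 CPM), the library with the fewest counts.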

How the results depend on the processing

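No listed gene was called in any of 66 alternative fits (other size factors, library size only, no expression filter, the DESeq2 Wald test, limma-voom, and class added or removed) or in any of 180 comparisons that left out 1 library each, where the count of called genes ran from 0 to 0. The smallest adjusted p of a listed gene in them was 0.512. Unadjusted, 6 alternative fits and 11 of the comparisons without a library had a listed gene with p under 0.05. In the main edgeR fits 0.153% to 5.56% of all genes had such a p. The share in the alternatives is not given, so nothing is read from these counts. For Plch1 with anti-PD-1 over 36 libraries the log2 fold change ran from 0.47 to 1.09 over the alternatives and p from 0.0207 to 0.502 (adjusted p from 0.640 to 1). For Plch1 with anti-CTLA4 it ran from -0.00104 without CT26 anti-CTLA4 35 to 0.54. No paired analysis was possible because each mouse number occurs in 1 library.

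Of the class descriptions, the count of listed genes without overlap between H2-Ea libraries and the class called neither was 1 with DESeq2 size factors, where Ip6k1 overlapped. Of all genes without overlap between these classes, 47.4% were higher in the H2-Ea class with these size factors, against 35% by library size. The log2 ratios between class medians were recomputed for all pairs of classes but those of Plch1 with the class called neither, whose median was 0. All 112 alternative values moved by less than the spread within classes, and 5 changed sign, all for H2-Ea against neither in Itpkc, Ip6k2 or Ip6k3. Without PancO2 anti-PD-1 71, 39.3% of genes and 6 listed genes, Ipmk added, did not overlap between Cp-high and H2-Ea libraries. Leaving it out also turned the sign of r in the H2-Ea class for Plch1 with Plch2 (-0.088), Itpka with Itpkb (-0.31) and Ip6k3 with Ip6k1 (0.14), none past the threshold before or after. The cause was not tested. Depth limits Plch2, at no more than 3 counts in 27 of 36 libraries, Itpka, at 1 to 54 counts, and Plch1 outside the Cp-high class. A count of 0 would allow up to 0.381 CPM in the shallowest library.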
